A study of Mus musculus with 9 samples.

Results

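In primary mouse stromal vascular fraction (SVF) cells, 32 genes had a lower mean RNA level in mizoribine (MIZ)-treated cells than in both of the states that adipogenic differentiation connects, by at least the ratio set for their choice. They were selected on measured values, out of 32285 gene identifiers counted. Reads of a gene were expressed as CPM, the counts per 1000000 counts of the library, averaged over the libraries of a treatment, and a gene was taken if its mean was at least 5 CPM in both vehicle-treated and undifferentiated cells and its MIZ mean was at most 0.25 of each. Of the identifiers, 9762 met the 5 CPM condition. The opposite condition, a MIZ mean at least 4 times both other means, held for 19 genes.

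The study compared 3 groups of 3 libraries each from wild-type mice 4 to 6 days old, whose SVF cells, all cells of subcutaneous white adipose tissue other than mature adipocytes, were cultured per animal. MIZ cells received adipogenic medium and 25 µM MIZ over 6 days, and vehicle cells the same medium and DMSO over the same time. The third group stayed undifferentiated. The medium for both differentiated groups held insulin, dexamethasone and IBMX for the first 2 days and then insulin, troglitazone, rosiglitazone and T3, so that MIZ and vehicle cells share these agents and the undifferentiated cells were not induced.

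MIZ blocks the IMP dehydrogenases IMPDH1 and IMPDH2, the enzymes that commit purine synthesis to guanine nucleotides. Preadipocytes that become adipocytes switch on lipid-handling genes and switch off much of their fibroblast-like program. A gene that differentiation turns on and a block keeps off ends near its undifferentiated level, whereas the genes described here were chosen for a level below that of both states. The 32 genes code for calcium transporters, matrix proteins, secreted factors and receptors, proteins of sugar, iron and polyamine metabolism, nuclear regulators and cytoskeletal proteins, and 1 of them, H19, is a long noncoding RNA.

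Libraries held 28760721 to 55288455 counts. Markers of mature adipocytes summed to 2955 to 3493 CPM in MIZ libraries, 26010 to 27750 CPM in vehicle libraries and 830 to 917 CPM in undifferentiated libraries. Vehicle library 1 stood apart from the other two of its group. Its counts differed from theirs with a chi-square per degree of freedom of 30.9 and 49.4 across genes, against 9.25 between vehicle libraries 2 and 3 and 4.10 to 17.8 within the other groups. It was the lowest vehicle library for 22 of the 32 genes and for 46.5% of the 9762 genes. Without it, the rule chose 33 genes, of which 31 were among the 32. Mitochondrially encoded RNAs took 0.686 to 0.836% of counts in MIZ libraries, 3.82 to 5.002% in vehicle libraries and 0.837 to 0.891% in undifferentiated libraries, and 33 genes met the rule when they were left out of the totals.

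The plot of MIZ ratios shows where the 32 genes lie among the genes that met the 5 CPM condition.

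**Figure D1:**
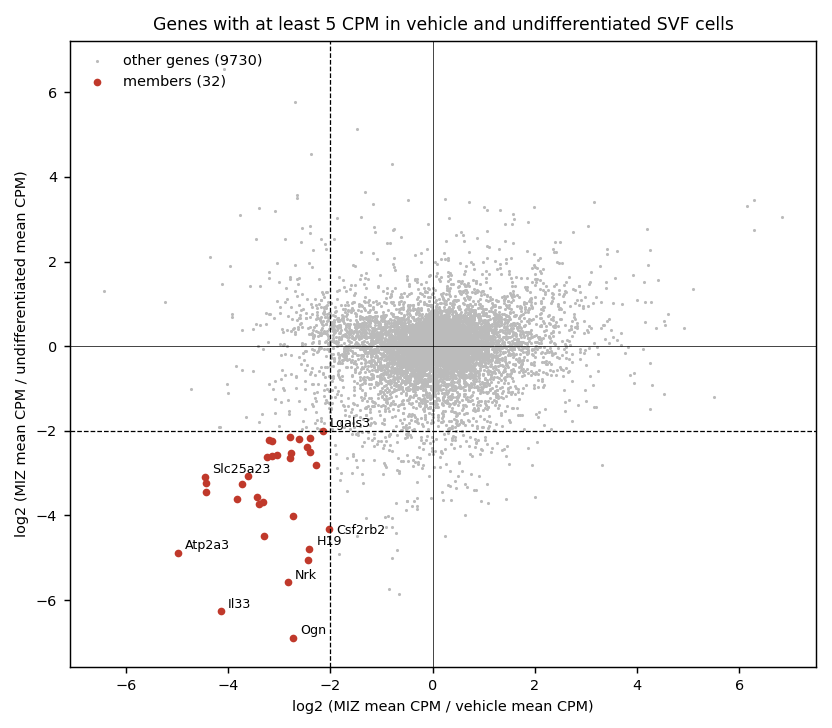
Log2 ratio of the MIZ mean to the vehicle mean (horizontal axis) and of the MIZ mean to the undifferentiated mean (vertical axis), in CPM, for 9762 genes, with the 32 chosen genes in red and the ratio of 0.25 as dashed lines. Atp2a3 and Il33 lie farthest below both lines together, Ogn lies lowest on the vertical axis, and Lgals3 sits at the corner.

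Together the 32 genes took 0.0260 to 0.0316% of counts in MIZ libraries, 0.148 to 0.189% in vehicle libraries and 0.346 to 0.389% in undifferentiated libraries. H19 was the largest part of the undifferentiated sums, with a mean of 2047 CPM. Lgals3 and H19 were the largest parts of the vehicle sums (419 and 395 CPM) and the MIZ sums (94.3 and 74.3 CPM). Gene by gene, the lower of the vehicle and undifferentiated means was the undifferentiated one for 19 genes and the vehicle one for 13. The MIZ mean lay 4.01 to 29.4-fold below the lower of the other 2 means, with a median of 6.18-fold. It was more than 10-fold below for 6 genes (Atp2a3, Il33, Clec3b, Aldoc, Unc45b and Esr1). Every MIZ library was below every other library for all 32, and for 13.8% of the 9762 genes that met the 5 CPM condition. For 19 of the 32, the highest MIZ library was at most 0.25 of the lowest other library. These values follow from how the genes were chosen, as do their edgeR log2 fold changes, which had a median of -3.21 for MIZ against vehicle (range -5.12 to -2.17) and -3.12 for MIZ against undifferentiated cells (range -6.86 to -1.96), with medians of 0.02 and 0.00 over all 17173 genes tested. No test is given for them. Across all genes tested, edgeR's quasi-likelihood test (Benjamini-Hochberg adjusted p under 0.05) called 35.1% lower and 35.9% higher in MIZ than in vehicle cells, 33.3% lower and 33.7% higher in MIZ than in undifferentiated cells, and 12.4% lower in MIZ than in both. RNA was measured from whole cultures, in which fewer cells of a type and less RNA per cell cannot be told apart.

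The ratio was also read in libraries that had no part in the choice. When the rule was applied to the libraries numbered 2 and 3, it chose 38 genes, and MIZ library 1 was below vehicle library 1 and undifferentiated library 1 for all 38, and at most 0.25 of both for 26. Chosen without the libraries numbered 2, 29 genes had their lowest level in MIZ library 2 in 29 cases, and 27 were at most 0.25 of both. Without those numbered 3, the counts were 26 of 26 and 22. Over all genes at 5 CPM or more in the libraries used, 20.6 to 24.3% were lowest in the left-out MIZ library and 0.297 to 0.401% were at most 0.25 of both.

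Values just inside the ratio limit were 0.227 for Ppp1r9a, 0.244 for Csf2rb2 and 0.2497 for Lgals3, and those just outside were 0.258 for Gpr146, 0.258 for Jak3 and 0.259 for Btbd6. On the level condition, Unc45b (lower mean 5.04 CPM), Clec3b (5.09 CPM) and Ogn (5.13 CPM) were just inside. Syngr1 (4.80 CPM) and Rnf144b (4.33 CPM) met the ratio and lay just outside the level.

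**Figure D2:**
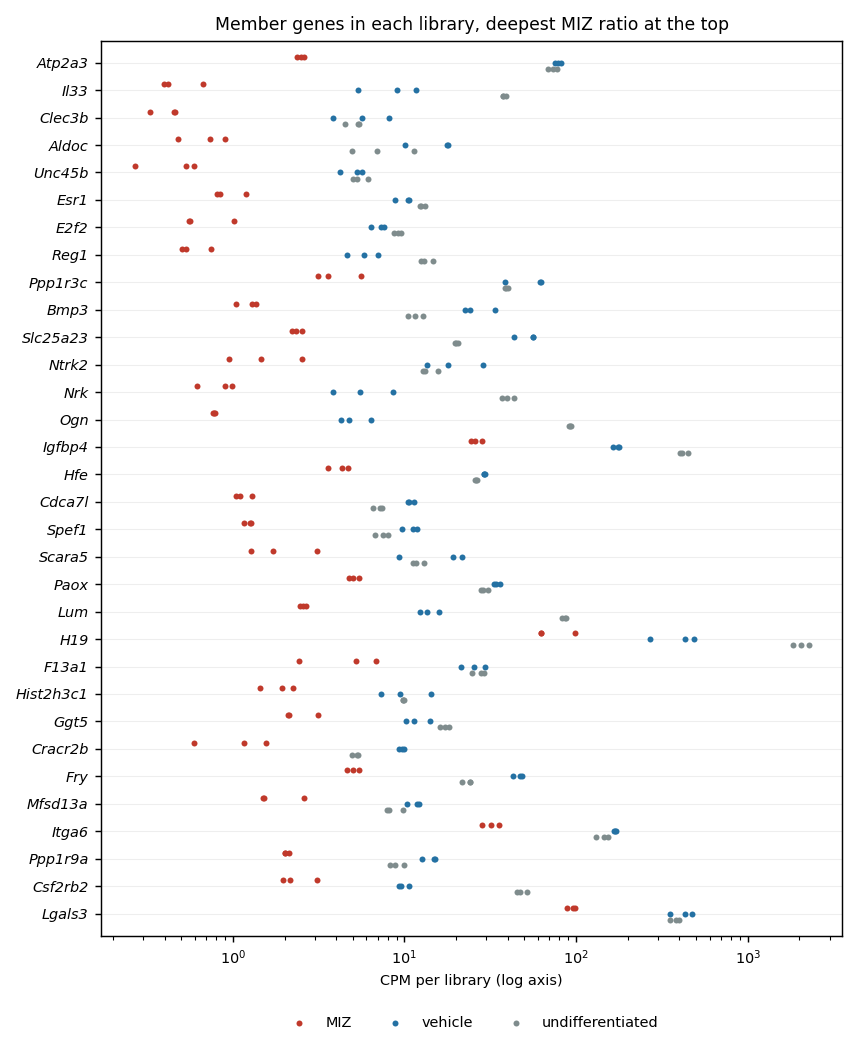
CPM of each of the 32 genes in each library on a log axis, 3 points per group, with MIZ in red above vehicle in blue and undifferentiated in grey, ordered by the ratio of the MIZ mean to the lower other mean from Atp2a3 (0.0340) at the top to Lgals3 (0.2497) at the bottom. In every row the 3 MIZ points lie left of the other 6, and the order of vehicle and undifferentiated points differs between rows.

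The lowest ratio of the chosen genes was that of Atp2a3, a calcium-handling gene. The ratios of Slc25a23 (0.117) and Cracr2b (0.211), also linked to calcium, were higher. Atp2a3 (ENSMUSG00000020788, chr11:72961169-72993044, GRCm38) codes for SERCA3, a pump that moves calcium into the endoplasmic reticulum. It had 2.38, 2.48 and 2.60 CPM in MIZ libraries, 81.4, 78.6 and 75.6 CPM in vehicle libraries and 69.0, 73.5 and 77.0 CPM in undifferentiated libraries. The vehicle and undifferentiated ranges overlapped, and the MIZ mean was 0.0340 of the lower of their means. Slc25a23, a calcium-regulated carrier of ATP-magnesium and phosphate in the inner mitochondrial membrane, had 2.54, 2.20 and 2.33 CPM in MIZ libraries, 43.6, 55.97 and 55.8 CPM in vehicle libraries and 19.9, 20.6 and 19.8 CPM in undifferentiated libraries. Cracr2b, an EF-hand protein related to a regulator of store-operated calcium entry, had 1.16, 0.592 and 1.55 CPM in MIZ libraries, 9.32, 9.69 and 9.89 CPM in vehicle libraries and 5.26, 5.39 and 4.97 CPM in undifferentiated libraries. For both Slc25a23 and Cracr2b the vehicle libraries were all above the undifferentiated ones.

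Relatives of these genes were read as well. Relatives here are genes of the same family or pathway, listed by known relation once the 32 were known, and those quoted were picked after their values were seen; since the rule did not choose them, they were tested in all comparisons, with p adjusted over all 17173 genes by edgeR. Atp2a2, the widely expressed SERCA2 pump, averaged 430 ± 2.0 CPM in MIZ cells, 517 ± 60 CPM in vehicle cells and 359 ± 8.7 CPM in undifferentiated cells (SD, n = 3 each). It was lower in MIZ than in vehicle cells (log2 fold change -0.40, SE 0.073, adjusted p = 0.000507) and higher than in undifferentiated cells (0.30, SE 0.073, adjusted p = 0.00379). Of the carriers closest to Slc25a23, Slc25a24 averaged 64.4 CPM in MIZ cells, 13.02 CPM in vehicle cells and 60.0 CPM in undifferentiated cells, and was higher in MIZ than in vehicle cells (log2 fold change 2.19, SE 0.13, adjusted p = 5.29e-08). Slc25a25 averaged 52.2 CPM in MIZ cells, 54.7 CPM in vehicle cells and 16.6 CPM in undifferentiated cells. Of 6 genes of store-operated calcium entry tested beside Cracr2b, 2 were lower and 3 higher in MIZ than in vehicle cells, and 5 were lower and 1 higher in MIZ than in undifferentiated cells. Stim1, a calcium sensor of the endoplasmic reticulum, and Orai3, a channel subunit, were lower in MIZ cells than in both, by -0.21 (SE 0.060, adjusted p = 0.00932) and -0.39 (SE 0.065, adjusted p = 0.000279) against vehicle and -0.28 (SE 0.059, adjusted p = 0.00148) and -0.43 (SE 0.064, adjusted p = 0.000136) against undifferentiated cells on the log2 scale. Stim2 was higher in MIZ cells than in both.

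The 300-base RefSeq windows around the start sites of the genes (250 bases before to 50 after, build GRCm38.p6, the first start listed where there are several) were searched for 17 short motifs on both strands. A window was found for 23 of the 32 genes, the others being Bmp3, Clec3b, Cracr2b, Ggt5, H19, Hist2h3c1, Itga6, Lum and Scara5. Sequences are shown for Atp2a3, the gene with the lowest ratio, and for the 4 genes whose window holds the letters TATAAA of a TATA box, with TATAAA and the GC box letters GGGCGG in capitals, also where they lie on the other strand. Their positions are chr11:72960919-72961218 for Atp2a3, chr6:78425733-78426032 for Reg1, chr11:99040994-99041293 for Igfbp4, chr13:49607765-49608064 for Ogn and chr19:29924863-29925162 for Il33, all on the + strand.
Atp2a3: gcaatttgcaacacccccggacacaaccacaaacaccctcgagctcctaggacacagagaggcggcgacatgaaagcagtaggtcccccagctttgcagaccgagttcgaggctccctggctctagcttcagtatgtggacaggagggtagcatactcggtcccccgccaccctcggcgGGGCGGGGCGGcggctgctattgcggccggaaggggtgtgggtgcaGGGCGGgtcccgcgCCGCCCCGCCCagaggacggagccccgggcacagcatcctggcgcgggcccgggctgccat
Reg1: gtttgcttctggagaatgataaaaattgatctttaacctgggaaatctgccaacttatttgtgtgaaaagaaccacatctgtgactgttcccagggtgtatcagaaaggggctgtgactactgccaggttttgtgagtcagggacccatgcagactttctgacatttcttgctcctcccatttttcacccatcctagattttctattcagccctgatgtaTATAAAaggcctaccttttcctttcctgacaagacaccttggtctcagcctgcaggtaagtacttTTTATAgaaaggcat
Igfbp4: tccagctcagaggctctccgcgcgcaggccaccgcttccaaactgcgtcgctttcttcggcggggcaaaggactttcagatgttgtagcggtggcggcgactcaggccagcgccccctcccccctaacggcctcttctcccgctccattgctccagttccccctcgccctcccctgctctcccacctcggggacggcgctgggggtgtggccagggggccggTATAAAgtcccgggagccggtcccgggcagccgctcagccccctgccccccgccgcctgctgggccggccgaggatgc
Ogn: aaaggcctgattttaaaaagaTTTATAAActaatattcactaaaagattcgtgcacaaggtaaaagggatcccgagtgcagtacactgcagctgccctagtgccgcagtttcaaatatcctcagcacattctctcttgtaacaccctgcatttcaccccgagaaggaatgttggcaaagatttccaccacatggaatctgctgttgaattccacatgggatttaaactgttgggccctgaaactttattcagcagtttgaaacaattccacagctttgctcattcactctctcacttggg
Il33: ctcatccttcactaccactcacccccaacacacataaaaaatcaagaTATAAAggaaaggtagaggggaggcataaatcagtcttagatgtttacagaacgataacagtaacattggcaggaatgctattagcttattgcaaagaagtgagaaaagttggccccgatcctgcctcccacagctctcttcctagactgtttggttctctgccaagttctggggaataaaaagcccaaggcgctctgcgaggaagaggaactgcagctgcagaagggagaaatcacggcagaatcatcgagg
The Atp2a3 window is rich in G and C (68.3%) and holds 5 GC box matches and no TATAAA. In Reg1 and Igfbp4 a TATAAA begins 30 and 28 bases before the listed start. In Ogn and Il33 it lies farther out, from 229 and 203 bases before. TATAAA was found in 4 of the 23 windows (17.4%), against 7.90% of the 12440 windows of tested genes and 14.2% of all 27025 windows. GGGCGG was found in 10 (43.5%), against 60.5% for tested genes and 35.9% of all windows. The median number of CG pairs per window was 13 for the 23 genes, 19 for tested genes and 7 for all windows. GAGGAA, the core letters bound by PU.1, was found in 8 windows (34.8%, against 27.2% for tested genes), the RUNX letters TGTGGT in 6 (26.1%, against 12.7%), and CCAAT in 10 (43.5%, against 38.1%). Of the 17 motifs, 8 had a higher and 9 a lower share among the 23 windows than among tested genes. The other higher shares were those of the TEAD letters GGAATG (21.7%, against 12.4%), the E-boxes CAGCTG (21.7%, against 15.4%) and CACGTG (13.04%, against 9.67%) and the AP-1 letters TGANTCA (8.70%, against 5.595%). Lower shares, beside that of GGGCGG, were those of TTTGAA, the CHR element (8.70%, against 12.4%), AGAACA, a glucocorticoid receptor half-site (8.70%, against 12.8%), TTCNNNGAA, the GAS element (4.35%, against 6.93%), and the GATA factor letters AGATAA (4.35%, against 6.65%). No window held TGACGTCA (CRE), GGGANTTCC (NF-kB), TTGCGCAA (C/EBP) or TTTCCCGC (E2F), which 3.03, 2.14, 0.281 and 1.92% of tested windows held. These are matches of letters and not sites of binding.

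Among secreted and matrix genes, the small leucine-rich proteoglycans Ogn and Lum, which bind collagen and shape its fibrils, separated all 3 groups. Ogn had 0.762, 0.789 and 0.776 CPM in MIZ libraries, 4.28, 4.74 and 6.38 CPM in vehicle libraries and 92.5, 93.9 and 91.5 CPM in undifferentiated libraries. Lum had 2.45, 2.57 and 2.66 CPM in MIZ libraries, 12.3, 13.4 and 16.0 CPM in vehicle libraries and 87.9, 85.6 and 83.0 CPM in undifferentiated libraries. Both therefore stood lowest in MIZ and highest in undifferentiated libraries, with no overlap. Per kilobase of exon, the undifferentiated means were 36.1 CPM for Ogn and 34.9 CPM for Lum.

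Of 15 genes of that proteoglycan family tested, 3 were lower and 6 higher in MIZ than in vehicle cells, and 12 were lower and 1 higher in MIZ than in undifferentiated cells, Ogn and Lum among the lower; counts of a list here and below include such genes, which these 2 comparisons chose. Bgn, biglycan, averaged 6946 ± 170 CPM in MIZ cells, 1060 ± 170 CPM in vehicle cells and 5277 ± 150 CPM in undifferentiated cells (SD, n = 3 each), and was higher in MIZ than in vehicle cells (log2 fold change 2.58, SE 0.11, edgeR adjusted p = 2.68e-09). Dcn, decorin, which flanks Lum on chromosome 10, averaged 270 CPM in MIZ cells, 191 CPM in vehicle cells and 617 CPM in undifferentiated cells, and its log2 fold change of 0.36 (SE 0.20) between MIZ and vehicle cells did not pass the threshold (edgeR adjusted p = 0.127). Markers of preadipocytes and fibroblasts, a list that holds Lum, summed to 13210 to 15570 CPM in MIZ libraries, 8338 to 9369 CPM in vehicle libraries and 33370 to 36520 CPM in undifferentiated libraries. Of 29 tested, 6 were lower and 16 higher in MIZ than in vehicle cells, and 16 were lower and 8 higher in MIZ than in undifferentiated cells. The largest means in the MIZ sum were those of the collagen genes Col1a1 (5818 CPM), Col1a2 (3411 CPM) and Col3a1 (1585 CPM). The part of preadipocytes and fibroblasts in the levels of Ogn and Lum was not tested.

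Igfbp4 codes for a secreted protein that holds insulin-like growth factors away from their receptor. It had 28.5, 24.4 and 25.9 CPM in MIZ libraries, 179, 165 and 176 CPM in vehicle libraries and 446, 415 and 406 CPM in undifferentiated libraries, again without overlap of the groups. Its family moved in several directions. Igfbp2, Igfbp5 and Igfbp7 were higher in MIZ cells than in both other groups, with log2 fold changes of 4.62 (SE 0.11, edgeR adjusted p = 6.86e-11), 3.28 (SE 0.18, adjusted p = 3.25e-08) and 2.43 (SE 0.059, adjusted p = 7.12e-11) against vehicle cells. Igfbp3 was lower in MIZ cells than in both, by -1.49 (SE 0.20, adjusted p = 4.05e-05) against vehicle and -3.20 (SE 0.21, adjusted p = 1.97e-07) against undifferentiated cells. Pappa, the protease that cleaves IGFBP4, averaged 328 CPM in MIZ cells, 55.8 CPM in vehicle cells and 536 CPM in undifferentiated cells. In the wider list of FGF, IGF, EGF, VEGF and PDGF genes, which includes Igfbp4, 22 of 81 tested were lower and 47 higher in MIZ than in vehicle cells, and 35 were lower and 38 higher in MIZ than in undifferentiated cells.

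Bmp3, which codes for a bone morphogenetic protein that counteracts others of its family in bone, had 1.04, 1.30 and 1.37 CPM in MIZ libraries, 33.8, 24.2 and 22.4 CPM in vehicle libraries and 10.4, 11.6 and 12.9 CPM in undifferentiated libraries. Its levels were highest in vehicle libraries and the groups did not overlap. Of 52 BMP, activin and TGF-beta genes tested, 11 were lower and 31 higher in MIZ than in vehicle cells, and 21 were lower and 22 higher in MIZ than in undifferentiated cells. Gdf10, the closest relative of Bmp3, averaged 8.97 CPM in MIZ cells, 4.90 CPM in vehicle cells and 56.4 CPM in undifferentiated cells.

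Clec3b, which codes for tetranectin, a plasminogen-binding protein of plasma and matrix, had 0.462, 0.451 and 0.328 CPM in MIZ libraries, 3.82, 5.67 and 8.15 CPM in vehicle libraries and 4.50, 5.35 and 5.43 CPM in undifferentiated libraries. Vehicle and undifferentiated libraries overlapped. The lowest of its MIZ libraries rests on 11 counts. F13a1, the catalytic chain of coagulation factor XIII, ranged from 2.42 to 6.82 CPM in MIZ libraries, 21.3 to 29.4 CPM in vehicle libraries and 24.7 to 29.1 CPM in undifferentiated libraries. Reg1, a secreted C-type lectin known from the pancreas, had 0.531, 0.507 and 0.746 CPM in MIZ libraries, 4.62, 5.79 and 7.003 CPM in vehicle libraries and 14.7, 12.9 and 12.4 CPM in undifferentiated libraries. The neighbour and relative of Reg1, Reg3g, averaged 0.188 CPM in MIZ cells, 1.43 CPM in vehicle cells and 1.38 CPM in undifferentiated cells, and was lower in MIZ than in vehicle cells (log2 fold change -3.07, SE 0.24, edgeR adjusted p = 6.34e-07).

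Il33 had the second-lowest ratio of the 32, after Atp2a3. It codes for interleukin 33, an alarmin of the interleukin 1 family that stromal cells of adipose tissue release. Il33 had 0.670, 0.395 and 0.418 CPM in MIZ libraries, 11.7, 9.03 and 5.38 CPM in vehicle libraries and 37.3, 37.8 and 38.8 CPM in undifferentiated libraries. The MIZ values rest on 14 to 29 counts. Its receptor chains went the other way: Il1rl1 averaged 50.6 ± 7.2 CPM in MIZ cells, 4.97 ± 1.1 CPM in vehicle cells and 12.96 ± 0.12 CPM in undifferentiated cells (SD, n = 3 each), and was higher in MIZ cells than in vehicle cells (log2 fold change 3.21, SE 0.15, edgeR adjusted p = 6.82e-09) and than in undifferentiated cells (2.00, SE 0.13, adjusted p = 2.48e-07). Il1rap, its partner, was higher in MIZ than in vehicle cells by 1.27 (SE 0.15, adjusted p = 2.21e-05). Among 57 cytokines and receptors tested, 14 were lower and 27 higher in MIZ than in vehicle cells, and 26 were lower and 18 higher in MIZ than in undifferentiated cells.

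Csf2rb2 codes for a mouse-specific copy of the beta chain of interleukin 3 receptors. It had 2.15, 3.07 and 1.97 CPM in MIZ libraries, 10.6, 9.61 and 9.27 CPM in vehicle libraries and 45.4, 51.5 and 46.9 CPM in undifferentiated libraries. Its transcripts are 95.1% identical over 3134 bases to those of its neighbour Csf2rb, so the split of reads between them is uncertain. Csf2rb averaged 4.72 ± 0.58 CPM in MIZ cells, 15.0 ± 5.4 CPM in vehicle cells and 50.6 ± 4.9 CPM in undifferentiated cells (SD, n = 3 each). Lgals3, galectin 3, a sugar-binding protein abundant in macrophages, had 98.4, 96.6 and 88.0 CPM in MIZ libraries, 352, 430 and 474 CPM in vehicle libraries and 355, 397 and 382 CPM in undifferentiated libraries. Lgals1, another galectin, was higher in MIZ than in vehicle cells (log2 fold change 1.65, SE 0.049, edgeR adjusted p = 2.21e-10), with means of 1496 CPM in MIZ cells, 434 CPM in vehicle cells and 745 CPM in undifferentiated cells. Lgals8 was lower in MIZ cells than in vehicle cells (-0.52, SE 0.067, adjusted p = 3.75e-05) and than in undifferentiated cells (-0.28, SE 0.067, adjusted p = 0.00361). Of the 5 relatives of Lgals3 tested, which include Lgals3bp, a protein it binds, 3 were lower and 2 higher in MIZ than in vehicle cells, and 2 were lower and 2 higher in MIZ than in undifferentiated cells.

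Csf2rb2, Lgals3 and F13a1 are also known from macrophages, whose 26 listed markers summed to 1432 to 1974 CPM in MIZ libraries, 864 to 1473 CPM in vehicle libraries and 8498 to 8971 CPM in undifferentiated libraries. Of 25 macrophage markers tested, 4 were lower and 11 higher in MIZ than in vehicle cells, and 22 were lower and 2 higher in MIZ than in undifferentiated cells. No listed macrophage marker was at 0 in all MIZ libraries. The largest means in the MIZ sum were those of Lyz2 (491 CPM) and Adgre1 (408 CPM). The part of macrophages in the levels of Csf2rb2, Lgals3 and F13a1 was not tested.

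Itga6, the alpha 6 integrin chain that binds laminin, had 28.5, 35.3 and 31.8 CPM in MIZ libraries, 166, 170 and 169 CPM in vehicle libraries and 131, 153 and 145 CPM in undifferentiated libraries. Its partner chain Itgb1 was higher in MIZ than in vehicle cells (log2 fold change 2.34, SE 0.064, edgeR adjusted p = 1.35e-10), with means of 2458 CPM in MIZ cells, 440 CPM in vehicle cells and 984 CPM in undifferentiated cells. Of 85 adhesion genes tested, 17 were lower and 40 higher in MIZ than in vehicle cells, and 33 were lower and 30 higher in MIZ than in undifferentiated cells. Endothelial cells also express Itga6, and their markers summed to 272 to 293 CPM in MIZ libraries, 109 to 129 CPM in vehicle libraries and 195 to 221 CPM in undifferentiated libraries, highest in MIZ libraries. Most of the MIZ sum came from Flt1 (mean of 183 CPM) and Eng (56.1 CPM), which other cells also express. Of 18 endothelial markers tested, 6 were lower and 7 higher in MIZ than in vehicle cells, and 9 were lower and 5 higher in MIZ than in undifferentiated cells. Kdr, Tek, Vwf and Egfl7 were lower in MIZ cells than in both, and Kdr averaged 0.268 CPM in MIZ cells, 0.912 CPM in vehicle cells and 5.91 CPM in undifferentiated cells. Flt1, Eng, Prox1, Flt4 and Ecscr were higher in MIZ cells than in both. Flt4 averaged 14.8 CPM in MIZ cells, 0.848 CPM in vehicle cells and 1.93 CPM in undifferentiated cells. The part of endothelial cells in the level of Itga6 was not tested. Ntrk2, the receptor of the neurotrophin BDNF, had 0.955 to 2.52 CPM in MIZ libraries, 13.6 to 28.5 CPM in vehicle libraries and 12.8 to 15.7 CPM in undifferentiated libraries. Scara5, a ferritin receptor, had 1.28 to 3.07 CPM in MIZ libraries, 9.35 to 21.6 CPM in vehicle libraries and 11.2 to 12.96 CPM in undifferentiated libraries, and vehicle library 1 was the lowest of its group for both. Bdnf itself was higher in MIZ than in vehicle cells, with a log2 fold change of 1.96 (SE 0.12, edgeR adjusted p = 8.16e-08). Of the 6 neurotrophins and their receptors tested beside Ntrk2, 1 was lower and 4 higher in MIZ than in vehicle cells, and 0 were lower and 3 higher in MIZ than in undifferentiated cells.

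**Figure D3:**
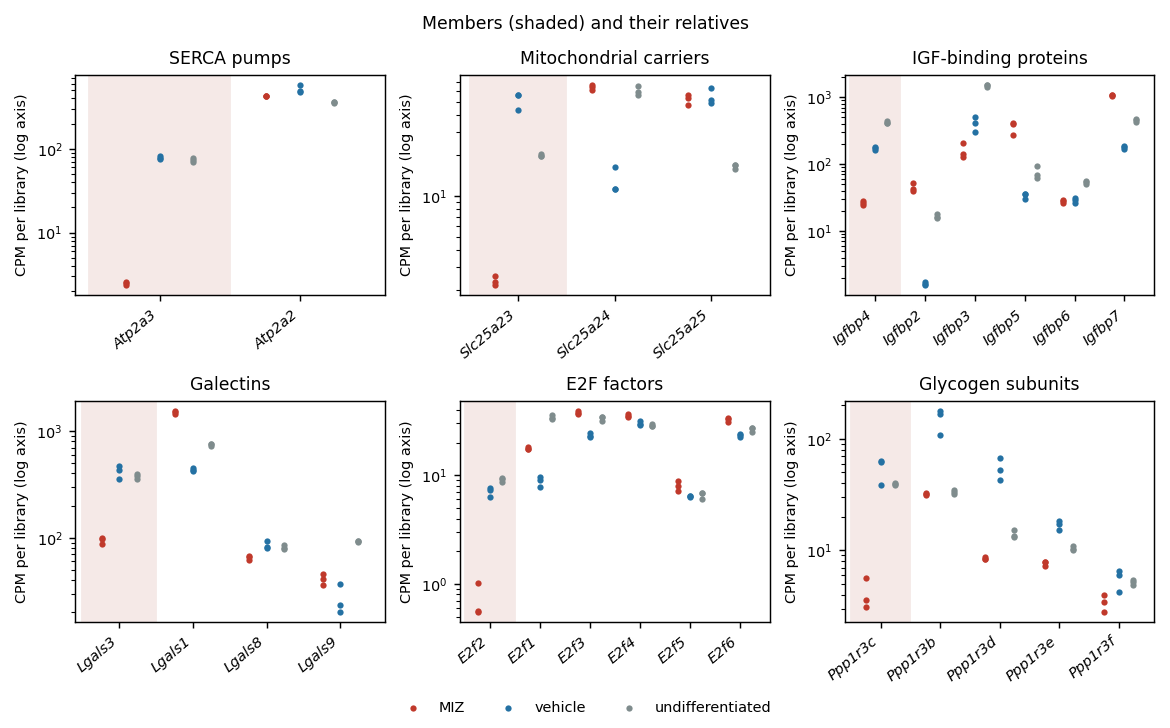
CPM per library on log axes for 6 genes of the 32 (shaded) and selected relatives, with MIZ in red left of vehicle in blue and undifferentiated in grey, 3 points per group; axes differ between panels, and values are not divided by gene length. In the shaded columns the MIZ points are lowest, and among the relatives Slc25a24, Igfbp2, Igfbp5, Igfbp7 and Lgals1 are higher and Ppp1r3b, Ppp1r3d, Igfbp3 and Lgals8 lower in MIZ than in vehicle libraries.

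Metabolic genes included Ppp1r3c, a subunit that brings protein phosphatase 1 to glycogen and promotes glycogen synthesis. It had 5.61, 3.13 and 3.58 CPM in MIZ libraries, 38.5, 62.9 and 61.5 CPM in vehicle libraries and 39.2, 38.7 and 40.2 CPM in undifferentiated libraries. Vehicle library 1 was just below the undifferentiated range and the other vehicle libraries were above it. Its relatives Ppp1r3b, Ppp1r3d and Ppp1r3e were lower in MIZ than in vehicle cells, by -2.37 (SE 0.15, edgeR adjusted p = 8.12e-08), -2.81 (SE 0.15, adjusted p = 2.31e-08) and -1.30 (SE 0.089, adjusted p = 1.80e-07) on the log2 scale. Against undifferentiated cells their MIZ levels were closer, at -0.03 (SE 0.15, adjusted p = 0.877), -0.67 (SE 0.15, adjusted p = 0.0024) and -0.41 (SE 0.090, adjusted p = 0.00209). Gys1, glycogen synthase, averaged 143 CPM in MIZ cells, 420 CPM in vehicle cells and 38.1 CPM in undifferentiated cells. Of the 11 glycogen genes tested beside Ppp1r3c, 10 were lower and 1, Pygb, higher in MIZ than in vehicle cells, and 5 were lower and 3 higher in MIZ than in undifferentiated cells.

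Aldoc, the aldolase of glycolysis best known from brain, had 0.739, 0.479 and 0.895 CPM in MIZ libraries, 10.01, 17.97 and 17.7 CPM in vehicle libraries and 4.95, 6.91 and 11.3 CPM in undifferentiated libraries. Vehicle and undifferentiated libraries overlapped. Aldoa, the common aldolase, averaged 1782 CPM in MIZ cells, 4683 CPM in vehicle cells and 556 CPM in undifferentiated cells, between the other groups in MIZ cells. Hfe, which takes part in the control of iron uptake, Paox, an oxidase of acetylated polyamines, Ggt5, a transferase acting on leukotriene C4 and glutathione conjugates, and Mfsd13a, a membrane protein of the major facilitator family, ranged from 1.49 to 5.41 CPM in MIZ libraries, 10.2 to 36.0 CPM in vehicle libraries and 7.92 to 30.7 CPM in undifferentiated libraries. Hfe had 3.58 to 4.72 CPM in MIZ libraries, against narrow ranges of 28.9 to 29.3 CPM in vehicle libraries and 25.9 to 26.5 CPM in undifferentiated libraries.

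The nuclear genes had some of the highest and lowest levels. H19, the imprinted noncoding RNA beside Igf2, averaged 30.2 CPM per kilobase of exon in MIZ cells, 160 CPM in vehicle cells and 832 CPM in undifferentiated cells. Lgals3 averaged 50.8 CPM per kilobase in MIZ cells, 225 CPM in vehicle cells and 203 CPM in undifferentiated cells, so that H19 was above it only in undifferentiated cells. It had 97.99, 62.5 and 62.3 CPM in MIZ libraries, 268, 431 and 485 CPM in vehicle libraries and 2268, 2040 and 1832 CPM in undifferentiated libraries. MIZ library 1 was above the other MIZ libraries, and vehicle library 1 was below the other vehicle libraries. Igf2 itself averaged 31.5 ± 5.9 CPM in MIZ cells, 22.4 ± 0.88 CPM in vehicle cells and 266 ± 18 CPM in undifferentiated cells (SD, n = 3 each), higher in MIZ than in vehicle cells by 0.35 (SE 0.11, edgeR adjusted p = 0.0162) and lower than in undifferentiated cells by -3.03 (SE 0.11, adjusted p = 4.3e-09) on the log2 scale. Of the 9 imprinted genes or partners tested beside H19, 4 (Igf2, Meg3, Plagl1 and Igf2r) were higher in MIZ than in vehicle cells and 2 (Cdkn1c and Grb10) lower, and all 9 were lower in MIZ than in undifferentiated cells.

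Esr1, estrogen receptor alpha, had 0.809, 0.846 and 1.19 CPM in MIZ libraries, 10.5, 8.81 and 10.6 CPM in vehicle libraries and 12.2, 13.1 and 12.5 CPM in undifferentiated libraries. Esr2, the beta receptor, was below the filter with means of 0.0359 CPM in MIZ cells, 0.0437 CPM in vehicle cells and 0.0654 CPM in undifferentiated cells. Pgr, a progesterone receptor gene that estrogen induces in other tissues, averaged 0.0502 CPM in MIZ cells, 0.142 CPM in vehicle cells and 3.02 CPM in undifferentiated cells. It was lower in MIZ than in vehicle cells (log2 fold change -1.56, SE 0.60, edgeR adjusted p = 0.0372). Against undifferentiated cells its log2 fold change was -5.70 (SE 0.37, adjusted p = 1.86e-07). Greb1, which estrogen induces in human breast cancer cells, averaged 5.39 CPM in MIZ cells, 1.81 CPM in vehicle cells and 3.88 CPM in undifferentiated cells, and was higher in MIZ cells than in vehicle cells (log2 fold change 1.39, SE 0.20, edgeR adjusted p = 7.08e-05) and than in undifferentiated cells (0.52, SE 0.18, adjusted p = 0.0259). Gper1, a membrane receptor for estrogen, was called higher in MIZ than in vehicle cells and lower than in undifferentiated cells, with means of 0.124 CPM in MIZ cells, 0.0136 CPM in vehicle cells and 0.714 CPM in undifferentiated cells. Its vehicle libraries had 0, 0.0199 and 0.0208 CPM. The change of Gper1 against vehicle cells (2.65, SE 0.84, adjusted p = 0.0149) therefore rests on very few counts.

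E2f2, a transcription factor of the E2F family that drives entry into S phase, had 0.555, 0.564 and 1.01 CPM in MIZ libraries, 7.61, 7.28 and 6.36 CPM in vehicle libraries and 8.69, 9.51 and 9.19 CPM in undifferentiated libraries. E2f1 and E2f3 were higher in MIZ than in vehicle cells, with log2 fold changes of 0.85 (SE 0.079, edgeR adjusted p = 2.54e-06) and 0.55 (SE 0.053, adjusted p = 2.94e-06). Of the 7 other E2F genes tested, 0 were lower and 5 higher in MIZ than in vehicle cells, and 3, E2f1 among them, were lower and 4 higher in MIZ than in undifferentiated cells. Of 49 genes of S phase and replication tested, 9 were lower and 25 higher in MIZ than in vehicle cells, and 45 were lower and 0 higher in MIZ than in undifferentiated cells, E2f2 among the lower in both. Cdca7l, a MYC-interacting relative of Cdca7, and Hist2h3c1, a histone H3 gene, ranged from 1.04 to 2.24 CPM in MIZ libraries, 7.31 to 14.2 CPM in vehicle libraries and 6.58 to 9.95 CPM in undifferentiated libraries. The transcript of Hist2h3c1 matches Hist2h3c2 over 666 bases at 100% identity, so its reads cannot be assigned with certainty.

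Cytoskeletal and signaling genes made up the rest. Fry, a large scaffold protein of microtubules and NDR kinases, had 4.60, 4.99 and 5.46 CPM in MIZ libraries, 42.9, 46.8 and 48.6 CPM in vehicle libraries and 24.1, 24.1 and 21.6 CPM in undifferentiated libraries. Its relative Fryl averaged 90.5 CPM in MIZ cells, 68.3 CPM in vehicle cells and 94.2 CPM in undifferentiated cells. Ppp1r9a, neurabin, which ties protein phosphatase 1 to actin, had 2.01, 2.11 and 2.00 CPM in MIZ libraries, 12.7, 14.8 and 15.0 CPM in vehicle libraries and 8.81, 9.98 and 8.19 CPM in undifferentiated libraries. Nrk, a kinase of the germinal center kinase family known from placenta, had 0.901, 0.620 and 0.985 CPM in MIZ libraries, 3.82, 5.47 and 8.54 CPM in vehicle libraries and 37.2, 43.7 and 39.3 CPM in undifferentiated libraries. Nrk thus separated the 3 groups, with vehicle libraries closer to MIZ than to undifferentiated ones on the CPM scale. Unc45b, a chaperone of muscle myosin, had 0.531, 0.592 and 0.269 CPM in MIZ libraries, 4.21, 5.27 and 5.65 CPM in vehicle libraries and 6.13, 5.28 and 5.03 CPM in undifferentiated libraries, and its lowest MIZ library rests on 9 counts. Unc45a, the general form, averaged 44.4 CPM in MIZ cells, 50.6 CPM in vehicle cells and 37.1 CPM in undifferentiated cells. Spef1, a microtubule-binding protein of motile cilia, ranged from 1.16 to 1.27 CPM in MIZ libraries, 9.67 to 11.8 CPM in vehicle libraries and 6.70 to 8.05 CPM in undifferentiated libraries.

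Vehicle against undifferentiated cells is the comparison on which the choice set no fold, and in it the 32 genes were mixed. By edgeR's quasi-likelihood test, 17 were higher and 9 lower in vehicle than in undifferentiated cells, and 6 were not called, against 36.2% higher and 41.5% lower over all genes tested, and 44.2% higher and 38.7% lower among the 9762 genes of at least 5 CPM in both. The median log2 fold change of the 32 was 0.33, against -0.08 over all genes. With library totals in place of TMM scaling, 12 were higher and 11 lower, and Atp2a3, Hfe, Lgals3, Ntrk2 and Scara5 were no longer called. Without vehicle library 1, 18 were higher and 8 lower.

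The plot of vehicle against undifferentiated fold changes orders the 32 genes from Slc25a23 to Ogn.

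**Figure D4:**
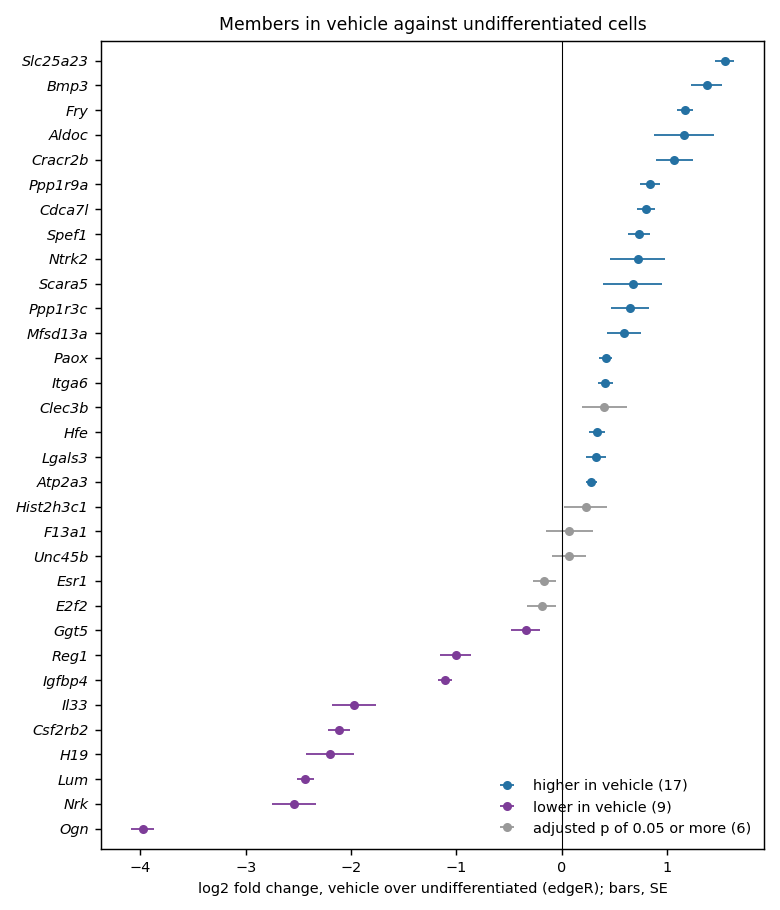
Log2 fold change of vehicle over undifferentiated cells from edgeR (horizontal axis) for the 32 genes, with bars of 1 standard error, blue where higher in vehicle (17), purple where lower (9) and grey where the adjusted p was 0.05 or more (6). Values run from 1.55 for Slc25a23 to -3.98 for Ogn.

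The largest rises in vehicle over undifferentiated cells were those of Slc25a23 (log2 fold change 1.55, SE 0.091, edgeR adjusted p = 3.43e-08), Bmp3 (1.38, SE 0.15, adjusted p = 5.83e-06), Fry (1.17, SE 0.074, adjusted p = 6.81e-08), Aldoc (1.16, SE 0.28, adjusted p = 0.00321) and Cracr2b (1.07, SE 0.18, adjusted p = 0.000195). The largest falls were those of Ogn (-3.98, SE 0.11, adjusted p = 7.21e-11), Nrk (-2.54, SE 0.21, adjusted p = 6.23e-07), Lum (-2.44, SE 0.082, adjusted p = 3.66e-10), H19 (-2.20, SE 0.23, adjusted p = 4.39e-06) and Csf2rb2 (-2.11, SE 0.11, adjusted p = 9.07e-09). Il33, Igfbp4 and Reg1 were also lower in vehicle cells, by -1.97 (SE 0.21, adjusted p = 5.31e-06), -1.11 (SE 0.066, adjusted p = 4.13e-08) and -1.01 (SE 0.14, adjusted p = 6.53e-05). Atp2a3 was higher by 0.28 (SE 0.051, adjusted p = 0.00043) and Itga6 by 0.41 (SE 0.071, adjusted p = 0.000262), while Esr1 (-0.16, SE 0.11, adjusted p = 0.189), E2f2 (-0.19, SE 0.14, adjusted p = 0.224), Clec3b (0.40, SE 0.21, adjusted p = 0.107) and Unc45b (0.07, SE 0.16, adjusted p = 0.698) did not pass the threshold. Clec3b was called higher without vehicle library 1 (0.62). Hist2h3c1, not called in the fit of all libraries, was called higher without vehicle library 3 (0.44). Ntrk2 (0.72, SE 0.26, adjusted p = 0.0267) lost its call without vehicle library 3 (0.39) and without undifferentiated library 2 (0.65) or 3 (0.67). Scara5 (0.67, SE 0.28, adjusted p = 0.0456) stayed called only without MIZ library 1 or 3 or vehicle library 1, and lay between 0.47 and 0.73 in the other 6 such fits. Ggt5 (-0.34, SE 0.14, adjusted p = 0.0434) lost its call without vehicle library 1 (-0.25) or 2 (-0.29) and without any 1 undifferentiated library (-0.40 to -0.30). Scaled by library totals alone, Atp2a3 was at 0.10 and was not called. Of the 26 called, 5 were more than 2-fold higher and 8 more than 2-fold lower, together 40.6% of the 32, against 28.1% of the 9762 genes of at least 5 CPM in both.

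The 103 relatives tested and the genes beside the 32 on their chromosomes were read as well. Of the relatives, 37 were lower and 43 higher in MIZ than in vehicle cells, 57 were lower and 33 higher in MIZ than in undifferentiated cells, and 22 (21.4%) were lower than in both, set beside 12.4% of all genes. The 22 include Csf2rb, whose reads are hard to split from those of Csf2rb2. With a 2-fold limit, 6 of the 103 were lower than in both, set beside 3.96% of all genes. The 2 sets were not matched for level, as 73 of the 103 had at least 5 CPM in both other groups. The nearest tested gene on either side of each of the 32 gave 64 flanking genes, with a median distance of 22454 bases. Of these, 28 were lower and 19 higher in MIZ than in vehicle cells, 34 were lower and 14 higher in MIZ than in undifferentiated cells, and 13 (20.3%) were lower than in both. Dlgap5, 1619 bases from Lgals3, averaged 2.29 CPM in MIZ cells, 0.944 CPM in vehicle cells and 19.8 CPM in undifferentiated cells, and Pnpla2, the adipose triglyceride lipase gene 351 bases from Cracr2b, averaged 353 CPM in MIZ cells, 2221 CPM in vehicle cells and 31.2 CPM in undifferentiated cells.

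The 32 genes spread over many chromosomes, with 4 each (12.5%) on chromosomes 11 and 13, which hold 7.9 and 4.1% of tested genes. Of the 32, 31 (96.9%) code for proteins, against 98.8% of the 9762 genes of at least 5 CPM. The median length of the 32 was 23439.5 bases, against 20436 for all genes tested and 25585 for the 9762 genes of at least 5 CPM. Of the 32, 6 (18.8%) were longer than 100 kb, among them Esr1, Fry and Ntrk2. The share was 12.7% of all genes tested and 13.8% of the 9762 genes. Exons of 7 of the 32 overlap another gene (Unc45b, Slc25a23, Cdca7l, Spef1, Paox, F13a1 and Cracr2b). The strand setting of the counting is not given in the sources used here, so reads of such a gene and its partner cannot be told apart where they overlap. Unc45bos, which overlaps Unc45b, averaged 0.248 CPM in MIZ cells, 3.36 CPM in vehicle cells and 4.46 CPM in undifferentiated cells. Gm10575, which overlaps Cracr2b, went the other way from it. Gm10575 averaged 8.06 CPM in MIZ cells, 1.65 CPM in vehicle cells and 4.88 CPM in undifferentiated cells.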

How the data were processed

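RNA of 9 libraries was sequenced as paired reads of 150 bases. Per the methods of the study, the authors trimmed reads with Trim Galore 0.6.7, aligned them to GRCm38 (mm10) and deposited raw counts per gene, 1 table per library; the methods name STAR for the counting and the labels also name HTSeq. The strand setting and the annotation release are not given in the sources used here. CPM here are counts over the library total. Total counts were 28760721 to 55288455 per library, and precision was judged from 3 libraries per group, which the labels call biological replicates.

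The chosen genes, the gene lists and the motifs were settled with earlier results of these data known. edgeR 4.0.16 (R 4.3.3, quasi-likelihood, TMM, all 9 libraries, no block) tested 17173 genes, those that reached 5 counts in 3 or more libraries, and left out 15112, with Benjamini-Hochberg adjustment and a threshold of 0.05. Standard errors are the fold change over the square root of F. In data simulated for vehicle against undifferentiated cells with 16843 genes, 91% of genes changed by 0.5 on the log2 scale and 100% of those changed by 1 or 2 were recovered, with 3 false calls. The simulation gave all genes the same spread, changed few genes, all of at least 5 CPM, and had no library that stood apart. Its rates therefore need not hold for the real libraries. Genes named with values per library are those among the 10 most abundant, the 10 lowest ratios, the 5 largest and smallest fold changes of vehicle against undifferentiated cells, up to 4 per gene list, and the 3 just inside the ratio limit. Other members are given by range, apart from Hfe, Ntrk2 and Scara5, which were singled out after their values were seen. Gene models came from GENCODE M21, promoter windows from RefSeq, and near-identical transcripts from blastn 2.17.0 (95% identity or more). Other scalings and filters, DESeq2 1.42.0, a replicate block, fits of fewer libraries and other limits of the rule were tried. Some genes near the limits of the rule or related to the chosen genes are not reported here.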

Additional observations from a re-analysis of the deposited data

How the results depend on the processing

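The rule gave 32 genes. It gave 63 with a ratio limit of 0.333 and 12 with 0.125, 75 when the level condition was 1 CPM and 16 when it was 10 CPM, and 19 when the highest MIZ library was set against the lowest other library. Without 1 library in turn it gave 28 to 36. With CPM over TMM-normalized library sizes it gave 33, of which 29 were among the 32, and Clec3b, Cracr2b and Lgals3 dropped out. With group medians in place of means it gave 34, of which 30 were among the 32, and Lgals3 and Ogn dropped out. The median log2 fold change of the 32 genes ran from -3.33 to -3.004 for MIZ against vehicle when 1 library was left out, with -3.004 without MIZ library 2.

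In vehicle against undifferentiated cells, 508 of 544 refitted fold changes of the 32 genes kept sign and side of the threshold over 17 settings, and 20 genes did so in all. F13a1, Unc45b and Hist2h3c1 were not called in the fit of all libraries and changed sign in some settings. F13a1 and Unc45b were each at -0.106 with library totals only, and on leaving out 1 library F13a1 ran from -0.037 to 0.196, Unc45b from -0.005 to 0.181 and Hist2h3c1 from -0.050 to 0.439. Ggt5, Scara5 and Ntrk2 lost their call in several settings, and under scaling by library totals Ntrk2, Scara5, Atp2a3 (0.101), Hfe (0.159) and Lgals3 (0.148) were not called, while Esr1 (-0.341) and E2f2 (-0.370) were called lower. Correlations of deviations were -0.045 to 0.063 for same-numbered libraries and -0.054 to 0.068 for differently numbered ones. They show no pairing by number, but cannot tell whether same-numbered libraries came from the same animal. With a replicate block 16 genes were higher and 8 lower. The 7 genes under 1 CPM in every MIZ library rest there on 9 to 39 counts per library.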
